A study of Capra hircus and Bos taurus with 7 samples.

Results

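The microRNAs (miRNAs) miR-320 and miR-484, which are made without the nuclease Drosha, were followed in extracellular vesicles, the membrane-bound particles that cells release, from reconstituted milk powders. The members were chosen by name, as every row called miR-320a, miR-320b or miR-484, and on their presence in the deposited tables of measured reads. This gave 3 of 364 rows, bta-miR-320a, bta-miR-320b and bta-miR-484, with no cut on level or change. Since they were put forward with their levels in all 7 libraries in view, the levels are a description, and the tests on them are no independent support.

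Most miRNAs are cut from a long primary transcript by Drosha, in the nuclear Microprocessor complex, before Dicer trims the hairpin in the cytoplasm. In mouse and human cells, miR-320a and miR-484 skip the Drosha step. Their precursors arise directly as short capped transcripts that start at the hairpin itself, and exportin-1 carries them out of the nucleus for Dicer to cut. In human cells miR-320 is known as a repressor of the transferrin receptor CD71, the protein that brings iron into red cell precursors, and miR-484 was described in rodent heart cells as a repressor of the mitochondrial fission protein Fis1.

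The 7 small RNA libraries were 1 from a commercial bovine (Bos taurus) powder, 3 from skimmed goat (Capra hircus) powder and 3 from whole goat powder, all from vesicles separated by size exclusion chromatography after the powder was dissolved in warm water. The goat libraries of a powder carry the letters A to C, and nothing in the labels says whether these are packs, lots or repeat isolations, so the spread between them, on which every p-value rests, may be technical. Nothing says either that the 2 goat powders came from the same milk, and the labels do not give the breed, the age or the number of animals behind a powder.

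Totals were 5675489 miRNA reads in the bovine library, 7953807 to 9285189 in the skimmed libraries and 6561887 to 11963849 in the whole libraries. The 6 epithelial marker miRNAs looked for (miR-200a, miR-200b, miR-200c, miR-141, miR-429 and miR-375) were present in every library, with a summed level of 106319 CPM (counts-per-million, over all miRNA reads of the library) in bovine, 104518 to 113777 CPM in skimmed and 98381 to 103738 CPM in whole powder. These similar sums hide members that parted. Bovine miR-375 was 0.414-fold the goat mean and below all 6 goat libraries, and bovine miR-200c was 1.48-fold and above all 6. The rest lay between 0.601-fold and 1.05-fold. Of these, bovine miR-429 and miR-200a were also below all 6 goat libraries, miR-200b was barely above all 6, and miR-141 lay among them. Goat reads were counted under bovine miRNA names, and the sources used here do not give the treatment of goat reads that differ from a bovine sequence. In the goat annotation (RefSeq, assembly ARS1.2) the gene MIR320, also called chi-mir-320, lies next to POLR3D, a subunit gene of RNA polymerase III, with PHYHIP on its other side. That gene was matched on the name without its letter. No coordinate is given, as the sources used here do not name the build of the counts.

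The vesicles of both species carried miR-320a as an abundant miRNA, miR-484 at a lower level, and next to no miR-320b. By level, miR-320a stood at 18289 CPM in the bovine library. It stood at 5871, 4398 and 3001 CPM in skimmed libraries A, B and C, and at 4499, 4566 and 3507 CPM in whole libraries A, B and C. The bovine library was thus far above the rest, and both the highest and the lowest goat libraries were skimmed ones, with the whole libraries between them. Among all miRNAs of its library it ranked 15 in bovine and between 28 and 44 in the goat libraries, and in the mean of the 6 goat libraries it ranked 37.

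The level of miR-484 was 775 CPM in the bovine library. It was 1589, 1369 and 1246 CPM in skimmed libraries A, B and C, and 784, 1348 and 1102 CPM in whole libraries A, B and C. Here the bovine library was the lowest, next to whole A, and skimmed A was the highest. Its rank was 60 in bovine, 56 to 60 in skimmed and 61 to 72 in whole powder. The gap between bovine and whole A is within counting error, as the exact Poisson interval (95%) of the bovine value runs from 753 to 799 CPM. Such intervals hold the counting error alone, as PCR copies of 1 molecule cannot be told from separate molecules without molecular identifiers.

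**Figure D1:**
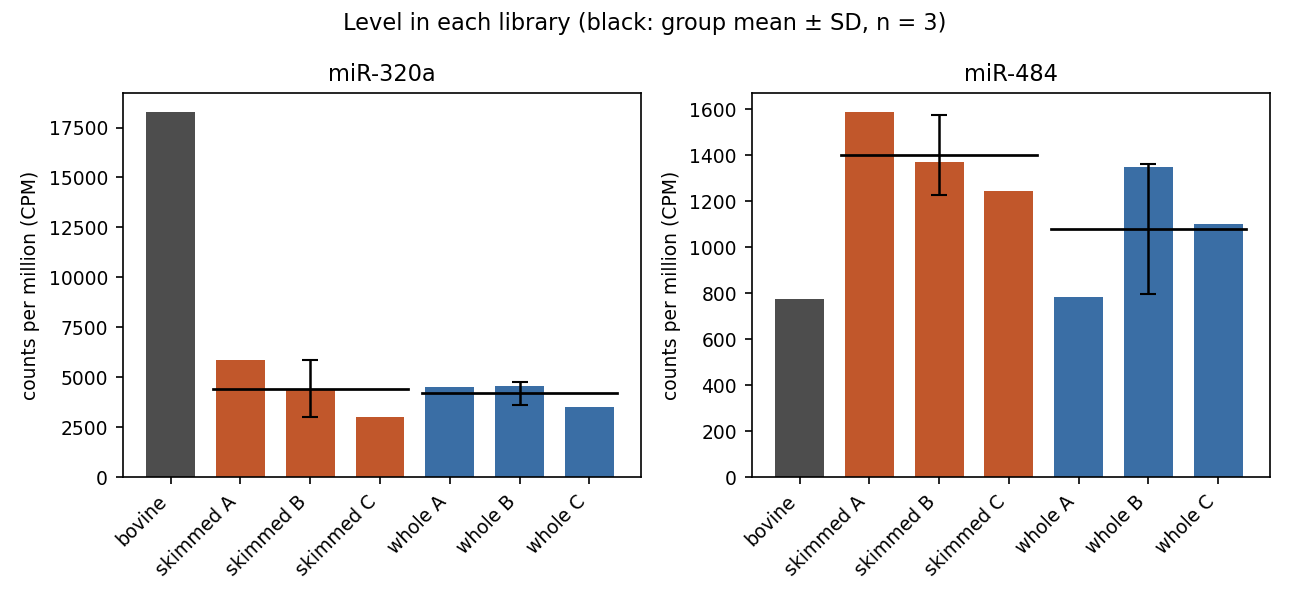
Level of miR-320a (left) and miR-484 (right) in CPM, one bar per library, with the mean ± SD of each goat powder (n = 3) in black and no error for the single bovine library. The bovine bar is the tallest for miR-320a, at 18289 CPM, and the lowest for miR-484, at 775 CPM.

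The row of miR-320b was close to empty. It held 2.25 reads in the bovine library, 0.33 in skimmed A and 0 in the other 5 libraries, against 103800 reads of miR-320a in bovine. A count this low is under a floor of 3 reads, and no fold is given for it. The reads of miR-320a and of miR-484 were fractions in all 7 libraries, as left when a read that matches several entries is divided between them. Near-identical names can share reads in this way, so how reads were split between miR-320a and miR-320b is uncertain, though no more than 2.25 reads were assigned to miR-320b in any library.

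Together the 3 rows took 1.91% of the miRNA reads of the bovine library, 0.746%, 0.577% and 0.425% of those of skimmed A, B and C, and 0.528%, 0.592% and 0.461% of those of whole A, B and C. Most of this was miR-320a in every library.

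The first comparison set the bovine powder against the goat powders. It rests on 1 bovine library, so species, product and library cannot be told apart and no test was made. Bovine miR-320a, at 18289 CPM (95% Poisson interval 18178 to 18401), was 4.25-fold the goat mean of 4307 ± 991 CPM (SD, n = 6) and 3.12-fold the highest goat library. Bovine miR-484, at 775 CPM, was 0.626-fold the goat mean of 1240 ± 275 CPM (SD, n = 6). The direction for miR-484 depends on the scaling, since the fold was 0.905 with TMM factors (edgeR's trimmed mean scaling) and 1.35 with median-of-ratios size factors (DESeq2's scaling) over all 7 libraries. For miR-320a the same scalings gave folds of 6.18 and 9.15, all above 1.

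These folds were read against the other abundant miRNAs. Of the 125 miRNAs that averaged 100 CPM or more over the 7 libraries, 14.4% stood at least 2-fold above the goat mean in bovine and 44% at or below 0.5-fold. By CPM 28% lay above all 6 goat libraries and 54.4% below all 6. So miR-320a was in the smaller of these classes, above all 6 goat libraries and past 2-fold, and 7 of the 125 had a larger fold. The mean over the 7 libraries includes bovine, so a miRNA can be among the 125 through its bovine level alone. Of the 7 with a larger fold, miR-2285t, miR-196a and miR-7859 had goat means of 1.03, 43.3 and 81.3 CPM, under 100 CPM. Such miRNAs add to the shares above the goat libraries. By CPM miR-484 lay below all 6 goat libraries, as most of the 125 did, but not below 0.5-fold. Its gap to whole A was within counting error, and its direction depends on the scaling. The median fold over the 125 was 0.601, on the log2 scale -0.73, and it moved to -0.19 with TMM and to 0.38 with size factors. Relative to that median, the fold of miR-320a was 7.06 times as high and that of miR-484 was 1.04 times as high, values that a scaling leaves nearly as they are by construction. The folds of the 125 were spread widely around the median.

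**Figure D2:**
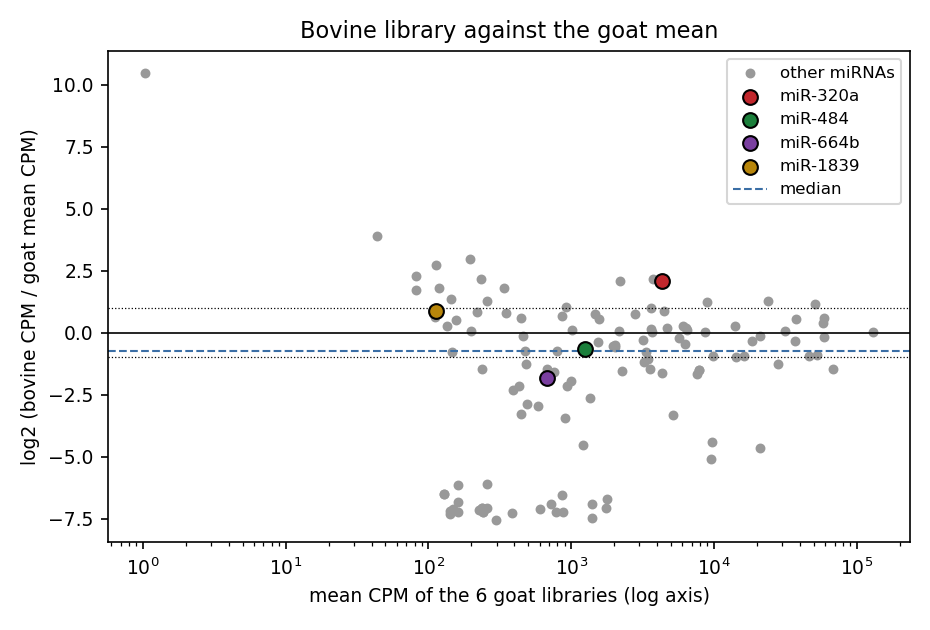
The log2 of bovine CPM over the goat mean CPM (vertical axis) against the goat mean CPM (log axis) for the 125 miRNAs that averaged 100 CPM or more, with members and list members in colour. Dotted lines mark 2-fold either way and the dashed line the median, and miRNAs under 3 reads in bovine are drawn at 3 reads. The point of miR-320a lies at 2.09, above the upper dotted line, and that of miR-484 at -0.68, next to the dashed line.

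A ratio of both miRNAs within a library does not depend on the scaling. There were 23.6 reads of miR-320a for each read of miR-484 in the bovine library. The ratio was 3.70, 3.21 and 2.41 in skimmed A, B and C, and 5.74, 3.39 and 3.18 in whole A, B and C. The bovine ratio was several times that of any goat library, whose mean was 3.60 ± 1.13 (SD, n = 6), while the skimmed and whole libraries overlapped, at 3.11 ± 0.650 in skimmed and 4.10 ± 1.42 in whole powder (SD, n = 3 each). The ratio shows that the 2 miRNAs differed unequally between bovine and goat, not which of them changed.

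**Figure D3:**
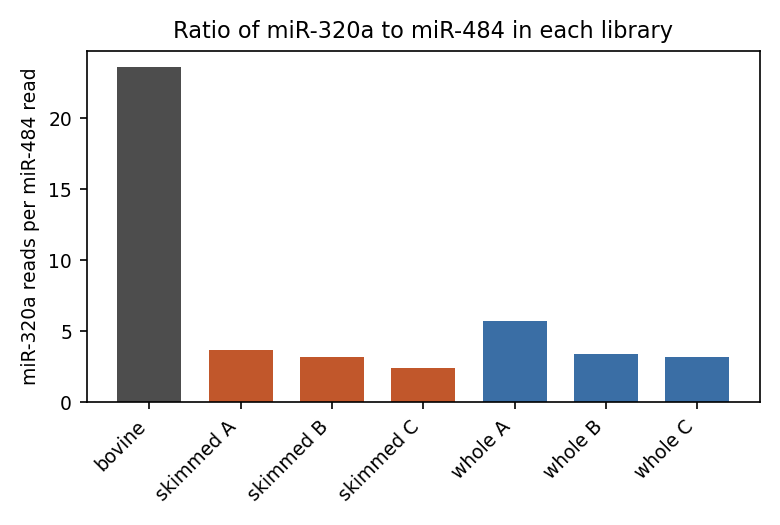
Reads of miR-320a for each read of miR-484, one bar per library. The bovine bar, at 23.6, stands above all goat bars, which lie between 2.41 and 5.74.

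Markers of other cell types also differed between bovine and goat. Low bovine levels were not particular to such markers. Of the 125 abundant miRNAs 54.4% lay below all 6 goat libraries in bovine and 44% at or below 0.5-fold the goat mean. The 6 leukocyte rows found for 5 names (miR-142, both arms, miR-223, miR-150, miR-155 and miR-146a) summed to 106 CPM in bovine, 3239 to 3423 CPM in skimmed and 2779 to 2910 CPM in whole powder, with miR-142-3p and miR-150 at 0 in bovine. The 3 stromal and endothelial rows found for 4 names (miR-143, miR-145 and miR-126-3p) summed to 17.2 CPM in bovine, 1690 to 2458 CPM in skimmed and 1487 to 1654 CPM in whole powder, with miR-126-3p at 0 in bovine. Of 4 erythroid names 1 had a row, miR-486, at 0.176 CPM in bovine, 15.6 to 38.6 CPM in skimmed and 23.6 to 72.8 CPM in whole powder. Their part in the difference of miR-320a was not tested. Vesicles of fewer cells of a type cannot be told apart here from less miRNA per cell.

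The second comparison set skimmed goat powder against whole goat powder, the contrast that the study's titles and design text set up. Neither miR-320a nor miR-484 changed past the threshold. The level of miR-320a averaged 4423 ± 1435 CPM in skimmed and 4191 ± 593 CPM in whole powder (SD, n = 3 each), so that its log2 fold change was 0.18 ± 0.25 (SE). The quasi-likelihood test of edgeR, adjusted over 209 miRNAs by Benjamini and Hochberg, gave an adjusted p of 0.94. The 95% interval of its log2 fold change ran from -0.38 to 0.75. On CPM alone the difference was 233 CPM, with an exact two-sided permutation p of 1.0, where 3 libraries against 3 allow no p below 0.1. The sign rests on single libraries: without skimmed A the log2 fold change was -0.11 and the difference -491 CPM, and without whole C the difference was -110 CPM.

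The level of miR-484 averaged 1401 ± 174 CPM in skimmed and 1078 ± 283 CPM in whole powder (SD, n = 3 each). Its log2 fold change was 0.48 ± 0.23 (SE; 95% interval -0.04 to 1.00), with an edgeR adjusted p of 0.52. It was above 0 in all 6 fits that left out 1 library, and lowest, at 0.20, without whole A, the library in which miR-484 was least abundant. The 2 goat powders overlapped for both miRNAs, since whole B, at 1348 CPM of miR-484, was above skimmed C, at 1246 CPM. As background, 0.478% of the 209 miRNAs tested passed the threshold, and 20.1% had skimmed and whole libraries that did not overlap in CPM. So 0 of the 2 tested members passed or stood apart; 22 of the 209 miRNAs had an unadjusted p under 0.05 in edgeR, and neither member was among them. In DESeq2's Wald test the adjusted p was 0.78 for miR-320a and 0.30 for miR-484. With 0.33 reads over the goat libraries, miR-320b did not pass the filter on low counts.

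The goat libraries varied more in these 2 miRNAs than in most abundant ones. The SD of log2(CPM + 1) over the 6 goat libraries was 0.34 for miR-320a and 0.35 for miR-484, where the median over the 64 miRNAs with a goat mean of at least 1000 CPM was 0.25. Of those 64, 47 had a smaller SD than miR-320a and 48 a smaller one than miR-484. The highest goat library held 1.96 times the miR-320a level of the lowest and 2.03 times the miR-484 level of the lowest.

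**Figure D4:**
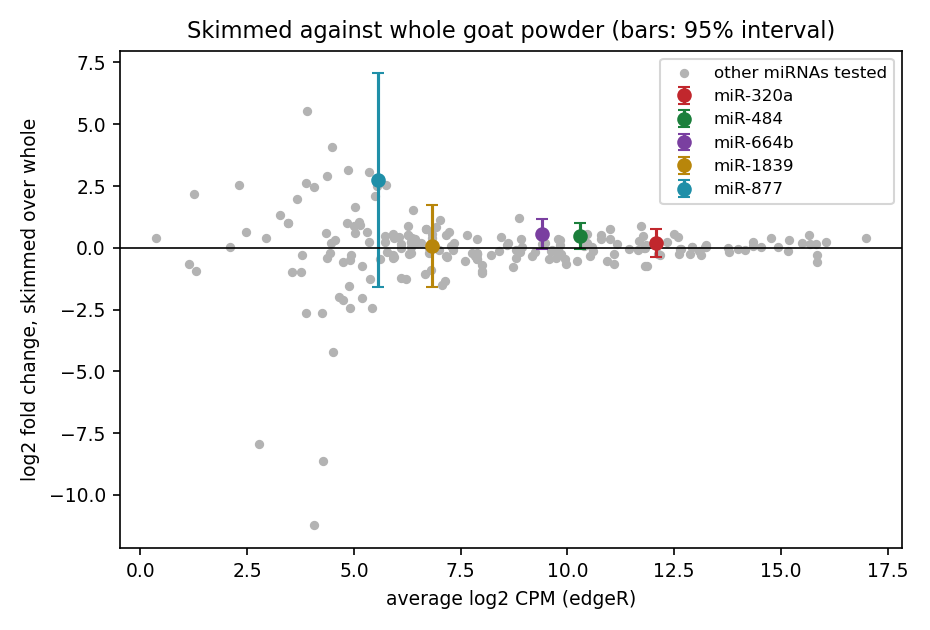
The edgeR log2 fold change of skimmed over whole powder (vertical axis) against the average log2 CPM for the 209 miRNAs tested, with 95% intervals for miR-320a, miR-484 and the 3 tested miRNAs of the list of other routes. All 5 intervals include 0, with miR-320a at 0.18 and miR-484 at 0.48.

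Other miRNAs known to be made by an unusual route were counted beside the members, from a list of 13 names. The list holds mirtrons, whose hairpins are spliced introns in place of Drosha products, miRNAs cut from small nucleolar RNAs, and miR-451, which is cut by Drosha but by Argonaute in place of Dicer and is not analysed here. Of the 13 names 4 had a row. These were miR-664b and miR-664a, which in human derive from small nucleolar RNAs, miR-1839, a miRNA from a small nucleolar RNA in mouse, and miR-877, a mirtron in mammals. None had the level of miR-320a or miR-484 in any library. Together they summed to 395 CPM in bovine, 723 to 1188 CPM in skimmed and 607 to 786 CPM in whole powder.

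Between the goat powders, 0 of the 3 tested members of the list passed the threshold in edgeR, where 1 of the 209 miRNAs did. The most abundant was miR-664b, at 966, 801 and 577 CPM in skimmed A, B and C and 559, 603 and 534 CPM in whole A, B and C, giving 0.57 ± 0.27 (SE) as its log2 fold change (edgeR adjusted p = 0.52). Skimmed A and B were above all whole libraries, and skimmed C was among them. The mirtron miR-877 stood at 78.6, 107 and 51.5 CPM in skimmed A, B and C and at 0.229, 38.4 and 0.251 CPM in whole A, B and C. Its skimmed libraries were all above its whole libraries, 2 of which were close to 0, and its log2 fold change of 2.74 ± 1.88 (SE) did not pass (edgeR adjusted p = 0.70). With 1.5, 390 and 3 reads in whole A, B and C, miR-877 passed the filter on low counts mainly through its skimmed libraries. Powders that did not overlap in CPM were found for 20.1% of the 209 miRNAs. For miR-1839 the log2 fold change was 0.07 ± 0.72 (SE), and its powders overlapped.

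In the bovine library miR-664b and miR-1839 lay on opposite sides of the goat libraries. Of the 125 abundant miRNAs 54.4% lay below all 6 goat libraries and 28% above all 6, so this is no result about unusual routes. Bovine miR-664b, at 188 CPM, was 0.280-fold the goat mean of 673 ± 172 CPM (SD, n = 6) and below all 6 goat libraries. Bovine miR-1839, at 207 CPM, was 1.82-fold the goat mean of 113 ± 29.9 CPM (SD, n = 6) and above all 6. Bovine miR-877 held 0.5 reads, and miR-664a held 0, with an exact Poisson interval (95%) that runs up to 0.65 CPM. In goat, miR-664a had 438 and 165 reads in skimmed A and B, 0 in skimmed C and 2 to 3 in each whole library.

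By mean level over the goat libraries, the miRNAs just above miR-320a were miR-30e-5p, miR-99a-5p and miR-181a, and those just below were miR-125a, miR-151-5p and miR-885. All 6 had goat means between 3640 and 4670 CPM, and the means of miR-181a, at 4326 ± 317 CPM, and of miR-320a, at 4307 ± 991 CPM, differed by less than either SD (n = 6). In the bovine library these equals parted, as abundant miRNAs did in general. Of the 125 abundant ones, 14.4% stood at least 2-fold above the goat mean in bovine and 44% at or below 0.5-fold. There miR-125a, a cluster partner of let-7e in mammals, was at 17047 CPM or 4.54-fold the goat mean, close to miR-320a. Bovine miR-181a, known for its role in lymphocytes, was at 1387 CPM or 0.321-fold, and miR-151-5p at 3733 CPM or 1.02-fold. The remaining 3 had bovine folds between 1.15 and 1.97.

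The profile of miR-320a over the 7 libraries was then compared with that of the other 124 miRNAs that averaged 100 CPM or more, by the root mean square difference of log2(CPM + 1) after each was centred on its own mean. The 5 most alike were miR-92a of the miR-17-92 cluster, at 0.35, miR-425-5p, the partner of miR-191, at 0.35, let-7b at 0.37, miR-362-5p at 0.38 and miR-30f, a member of the miR-30 family, at 0.41. The median over the 124 was 1.16. All 5 were highest in the bovine library, with bovine folds over the goat mean of 2.25 for let-7b to 3.48 for miR-425-5p. That follows from how they were chosen and is no separate result. The centred profile of miR-320a stood at 1.82 in bovine and at -0.79 to 0.18 in the goat libraries. By CPM 28% of the 125 abundant miRNAs lay above all 6 goat libraries in bovine. Over the 6 goat libraries alone 1 of these 5, let-7b, remained among the 5 most alike. For miR-484 the difference from miR-320a was 1.03, place 51 of 124.

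**Figure D5:**
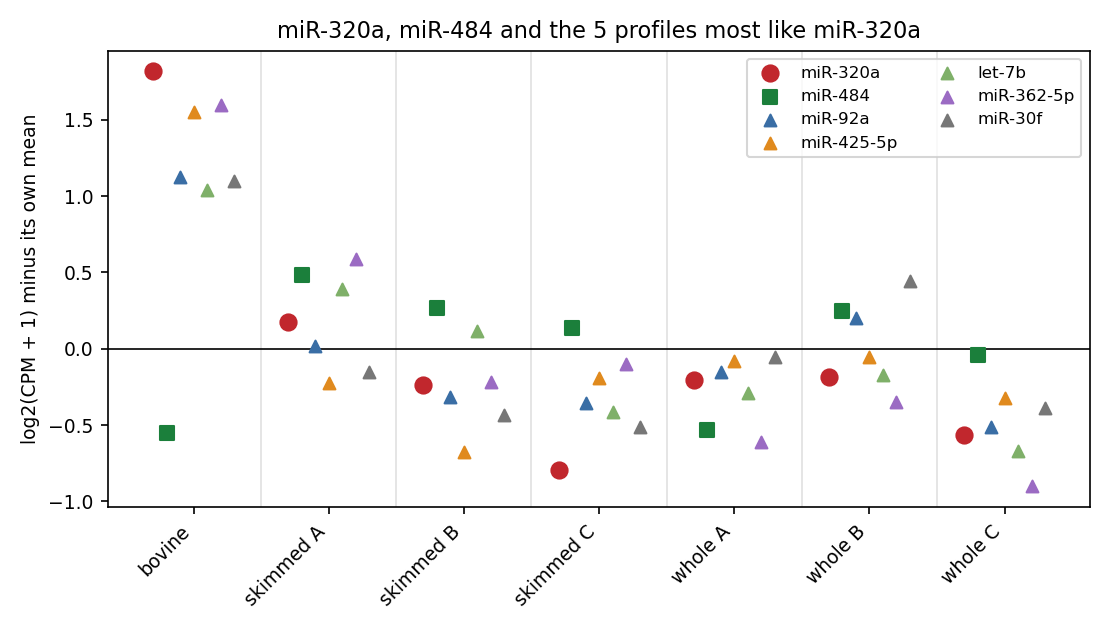
The log2(CPM + 1) of each miRNA minus its own mean over the 7 libraries, by library, for miR-320a (circles), miR-484 (squares) and the 5 most alike miRNAs (triangles). In the bovine library miR-320a and the 5 lie above 1 and miR-484 at -0.55, while all lie between -0.90 and 0.59 in the goat libraries.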

How the data were processed

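Vesicle RNA was taken with a total RNA kit, made into small RNA libraries, selected by size on a gel and read as single-end reads of 50 bases, per the labels' protocols. The deposited tables give estimated counts per mature miRNA, per the file headers and their fractional values; they were taken as not normalized, and the sources used here do not give the aligner, the counter, the miRNA reference or the build. CPM was computed here over all 364 rows of a library. Estimated counts were rounded, and skimmed and whole goat libraries were compared in edgeR 4.0.16 (R 4.3.3; filterByExpr, 209 miRNAs kept; TMM; quasi-likelihood test; Benjamini-Hochberg; adjusted p of 0.05). The SE is the log2 fold change divided by the square root of F. Alternatives used DESeq2 1.42.0 and limma 3.58.1. The fit was also run on simulated counts, and as the recovery is not given here, that run lends no support. No library was a copy of another of its powder, the chi-square between them over its degrees of freedom being 497 to 1642. No label gives a batch. The members, lists and tests were chosen with earlier results of these data known. The miRNAs named are the members, the listed ones found, the 3 neighbours on each side in goat level and the 5 most alike profiles; miRNAs of shared seed were not looked for, as sequences were not used here.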

Additional observations from a re-analysis of the deposited data

How the results depend on the processing

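Over 16 alternative fits of skimmed against whole powder, the edgeR, DESeq2 or limma adjusted p of miR-320a ran from 0.39 to 0.98 and that of miR-484 from 0.27 to 0.89, so neither passed in any. The log2 fold change of miR-484 stayed above 0, at 0.20 to 0.64, and that of miR-320a ran from -0.11 to 0.41 over the fits that left out 1 library, below 0 only without skimmed A. The difference in miR-320a CPM ran from -491 to 944 when 1 library was left out, and this leaving out, like DESeq2 without independent filtering, was chosen after seeing the data. The number of miRNAs past the threshold, 1 in edgeR, was 0 with size factors, with library totals, with upper-quartile scaling and with the replicate block, 2 without the filter, 4 above 100 CPM, 13 in DESeq2 and 12 in DESeq2 without independent filtering, and 0 to 1 with 1 library left out. Upper-quartile scaling moved the median log2 fold change over all miRNAs from 0.03 to -0.11 and gave 0.03 for miR-320a and 0.32 for miR-484. The letters A to C were not taken to pair the libraries: same-letter deviations correlated at 0.181, 0.142 and 0.061, though each library correlated best with its own letter. With the letter as a replicate block the log2 fold change was 0.13 for miR-320a and 0.50 for miR-484. The bovine fold of miR-320a was 6.18 with TMM and 9.15 with size factors over 7 libraries, against 4.25 by CPM, and that of miR-484 was 0.905 and 1.35, against 0.626. Of the 5 profiles most like miR-320a, 3 were kept among miRNAs of at least 1000 CPM, since miR-425-5p and miR-362-5p averaged 455 and 161 CPM. A floor on level leaves the likeness of the others as it is, so that count does not test it. Among miRNAs of 1000 CPM or more the median SE was 0.15, below those of miR-320a and miR-484, so small changes of these miRNAs were not detectable.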

Other observations

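Over the 6 goat libraries alone, a choice made after seeing the data, the profiles most like that of miR-320a were those of miR-342, miR-155, miR-340, let-7b and miR-224, with root mean square differences of 0.12 to 0.20 on the log2(CPM + 1) scale, against a median of 0.46 over the 125 miRNAs compared. Of these 5, 1 was also among the 5 over all libraries, let-7b. For miR-155, a miRNA of activated immune cells, the levels were 1711, 1491 and 1157 CPM in skimmed A, B and C and 1321, 1417 and 1318 CPM in whole A, B and C. In all 5 the skimmed libraries fell from A to B to C, as for miR-320a. The 5 were chosen by likeness to miR-320a in these same libraries, so the shared order is no separate result. In the bovine library let-7b, at 115600 CPM, and miR-340, at 602 CPM, were above all 6 goat libraries, as miR-320a was, while miR-155, at 7.75 CPM, miR-224, at 13.0 CPM, and miR-342, at 1288 CPM, were below all 6.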
